A study of Homo sapiens with 10 samples.

Results

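The 9 genes described here encode the versican and hyaluronan matrix and its turnover: VCAN, the hyaluronan synthases HAS2 and HAS3, the hyaluronan receptor CD44, the matrix proteins TNC and BGN, and the proteases ADAMTS1, ADAMTS5 and ADAMTS9. They were taken by name from the 33551 rows of a gene count table. VCAN was chosen because of its level in the E292V line against wild type, so that all values of that contrast are a description and carry no test. The other members were grouped with it by their known roles in this matrix, with earlier results of these data known.

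The samples were 10 libraries of A549, an established cell line from a human lung adenocarcinoma that keeps features of the alveolar epithelium. The labels name 5 A549 lines: ABCA3 wild type (WT), ABCA3 knockout (KO), and the ABCA3 variants L101P, E292V and E690K. ABCA3 is a lipid transporter of surfactant-storing lamellar bodies. Each line gave 1 untreated library and 1 library from cells transduced overnight with a VSVG-pseudotyped lentiviral vector, LV-ABCA3:GFP, at a multiplicity of infection of 20. Each genotype is therefore 1 line, and nothing in the labels names separate cultures or clones. A p-value between lines thus sets their difference against the departure of these libraries from a common effect of line and vector. It measures no spread between clones or cultures of a genotype.

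Versican is a large chondroitin sulfate proteoglycan that binds hyaluronan, a long unsulfated sugar chain that membrane synthases extrude from the cell. Cells hold this coat through CD44, and tenascin-C binds the C-terminal lectin domain of versican. Secreted ADAMTS metalloproteases cut the versican core protein. In lung, this provisional matrix is known for its accumulation in injury, inflammation and tumour stroma.

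The promoters of 3 members are shown because VCAN and TNC differed most between lines among the well counted members, and CD44 little. Each sequence is the 250 bases before the transcription start in RefSeq (GRCh38.p14), 5′ to 3′ on the gene's strand, at chr5:83471494-83471743 (plus strand) for VCAN, chr9:115118158-115118407 (minus strand) for TNC and chr11:35138921-35139170 (plus strand) for CD44. Capitals mark matches on either strand to TATAA (TATA element) or GGGCGG (GC box).
VCAN: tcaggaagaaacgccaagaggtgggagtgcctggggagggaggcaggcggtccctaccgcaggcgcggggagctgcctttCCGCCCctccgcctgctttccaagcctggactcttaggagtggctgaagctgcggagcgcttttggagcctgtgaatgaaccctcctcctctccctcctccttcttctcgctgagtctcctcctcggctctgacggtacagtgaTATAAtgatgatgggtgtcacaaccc
TNC: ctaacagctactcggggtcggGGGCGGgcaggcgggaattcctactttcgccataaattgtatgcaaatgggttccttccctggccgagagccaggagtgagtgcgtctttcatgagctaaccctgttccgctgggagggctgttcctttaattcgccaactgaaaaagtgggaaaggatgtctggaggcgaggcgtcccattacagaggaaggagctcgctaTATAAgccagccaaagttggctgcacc
CD44: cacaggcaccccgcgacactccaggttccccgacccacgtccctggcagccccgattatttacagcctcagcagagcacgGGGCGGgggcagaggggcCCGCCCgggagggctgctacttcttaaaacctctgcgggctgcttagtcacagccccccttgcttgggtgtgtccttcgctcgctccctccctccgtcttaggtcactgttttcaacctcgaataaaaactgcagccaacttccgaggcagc

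VCAN and TNC each held 1 TATAA match, beginning 26 and 27 bases before the start, and CD44, HAS3 and BGN held none. Of 35116 RefSeq promoter windows of the same length, 18.9% held this match and 42.6% a GC box. VCAN, TNC and HAS3 held 1 GC box, CD44 held 2 and BGN held 5. No match was found in these windows to CCAAT (32.0% of all windows), to the AP-1 element TGANTCA (6.57%) or to the TCF/LEF element CTTTGNT (13.2%). Promoter sequences were matched for 5 of the 9 members. These matches are letters in the reference and show no binding.

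Total counts were 59430095 to 96811421 per library. Levels are given as counts scaled by the library total (CPM, the usual depth-scaled unit), with 95% Wilson intervals on read pairs where a single library matters, which cover counting error only. Of the 9 genes, 6 passed the filter on low counts and were tested. In the pair labelled KO the targeted gene went against the labels: ABCA3 was at 601 CPM in the library labelled untreated and 25.8 CPM in the one labelled transduced, and counts of the EGFP row were 2842 and 4. The direction of a vector effect in that pair rests on its labels. ABCA3 had 362 and 610 CPM in untreated and transduced WT cells, 1156 and 896 in L101P, 992 and 1035 in E292V, and 890 and 968 in E690K. It was thus lower in the transduced library of L101P as well, and higher in the untreated library labelled KO than in untreated WT. EGFP counts were also present in the other 4 libraries labelled untreated, 60 in L101P to 5924 in WT. The transduced libraries had 3474 in L101P and 12432 in WT. In E292V the counts were 1634 untreated and 6338 transduced. In E690K they were 1236 and 1406, so that EGFP differed little between the libraries of that pair. The bearing of this on the vector comparison in E690K was not tested. The row TDTOMATO had 324 and 236 counts in untreated and transduced WT cells. It had 542 to 756 counts in the libraries of L101P, E292V and E690K, and 0 in those labelled KO.

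Per kilobase of merged exons in GENCODE 29, the median level over the 10 libraries was 27.5 CPM for CD44, 10.9 for HAS3, 1.84 for TNC, 1.23 for VCAN, 1.22 for HAS2 and 0.0431 for ADAMTS9. The RNA of the receptor and of 1 synthase was thus far above that of the proteoglycan they are known to work with. BGN, ADAMTS1 and ADAMTS5 were at or near 0.

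**Figure D1:**
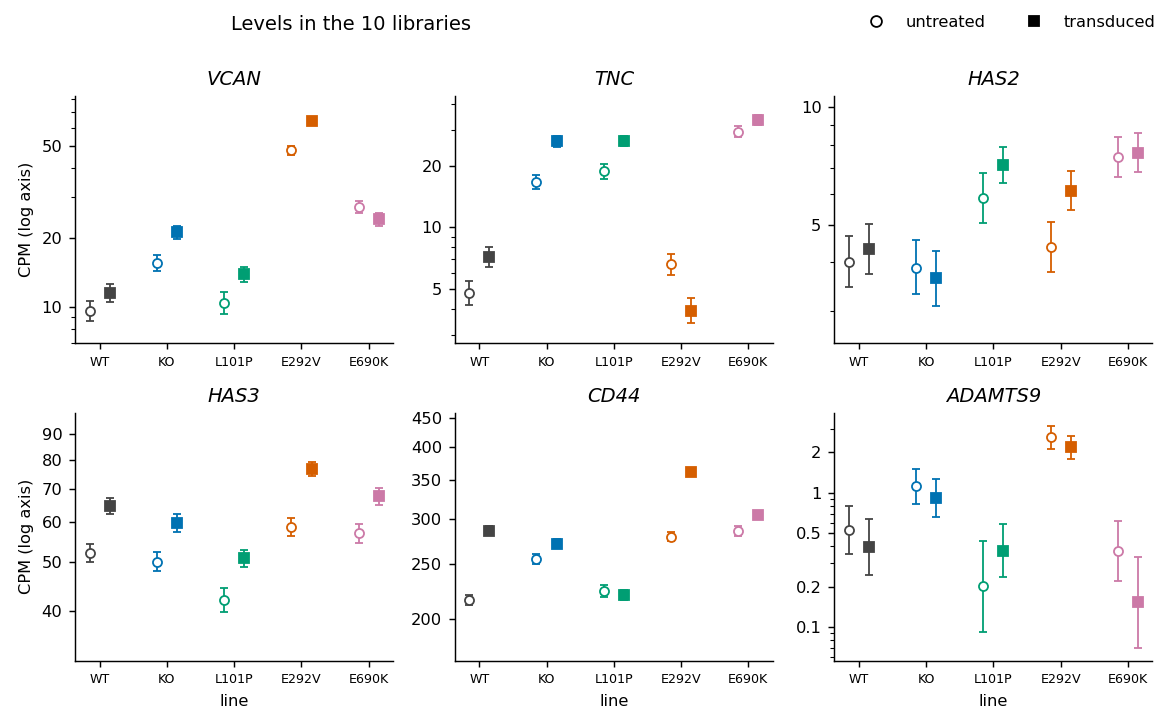
Levels of the 6 tested members in CPM (log axis, a different range in each panel) in the 5 lines, with open circles for untreated and filled squares for transduced libraries. Bars are 95% Wilson intervals of counting error. VCAN is highest in E292V (47.8 and 63.8 CPM), and TNC is lowest in WT and E292V (3.92 to 7.16 CPM) and at 16.6 to 33.4 CPM in the other lines.

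VCAN (ENSG00000038427.15, chromosome 5, 83471465 to 83582303 in GRCh38, plus strand) had 9.58 CPM in untreated and 11.5 in transduced WT cells. The libraries labelled KO had 15.5 and 21.1 CPM, those of L101P 10.4 and 13.9, those of E292V 47.8 and 63.8, and those of E690K 27.1 and 24.0, in the same order. Both E292V libraries lay above all others, the E690K libraries above those labelled KO, and the libraries labelled KO above those of L101P and WT, whose ranges overlapped.

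In E292V, VCAN stood at 5.00 times the WT level in the untreated and 5.55 times in the transduced pair, with a fitted log2 fold change of 2.39. In that contrast 2 of the 6 tested members, VCAN and ADAMTS9, had an edgeR adjusted p under 0.05, beside 1.05% of all 17978 genes tested. Nothing is read from that count, because the contrast chose VCAN.

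VCAN was also higher than WT in a pair of lines that had no part in its choice, although these contrasts share the low WT libraries with the one that did. In E690K it was 2.83 and 2.09 times WT in the untreated and transduced pairs, with a fitted log2 fold change of 1.35 and an SE of 0.14 (edgeR adjusted p 0.000280). In the line labelled KO it was 1.62 and 1.83 times WT, with a fitted log2 fold change of 0.82 and an SE of 0.14 (edgeR adjusted p 0.0139). In L101P the log2 fold change of 0.24 (SE 0.14) did not pass (edgeR adjusted p 0.405). The E690K call was kept under all 18 other settings tried (largest adjusted p 0.00609). The call in the line labelled KO was not: the edgeR adjusted p was 0.0746 with the labels of that pair exchanged, and 0.261, 0.0679 and 0.0971 without the transduced KO, the untreated WT or the transduced WT library.

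Of the tested members, 2 of 6 were called in the line labelled KO (1.8% of all genes), 1 of 6 in L101P (3.94%) and 3 of 6 in E690K (5.38%). Each of these 6 calls was higher than WT. Of all genes tested, 0.807% were called higher and 0.99% lower in the line labelled KO, 2.33% and 1.61% in L101P, 3.05% and 2.33% in E690K, and 0.295% and 0.756% in E292V. TNC was called in each of the 3 contrasts, VCAN in 2 and HAS2 in 1.

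**Figure D2:**
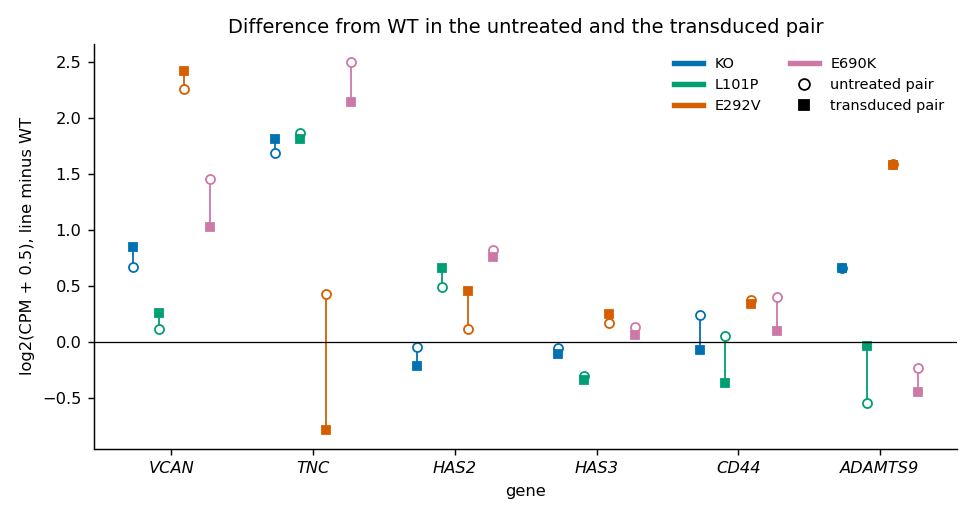
Difference of each other line from WT on the log2(CPM + 0.5) scale, for the untreated pair (open circles) and the transduced pair (filled squares), joined by a line. VCAN lies above 0 in both pairs of each line. TNC lies above 0 in both pairs of KO, L101P and E690K, and in E292V its pairs lie on opposite sides of 0.

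TNC (ENSG00000041982.15, chromosome 9, 115019578 to 115118257, minus strand) encodes tenascin-C, a multi-armed matrix glycoprotein of embryonic and injured tissue. It had 4.79 CPM in untreated and 7.16 in transduced WT cells, and 6.61 and 3.92 in E292V. The libraries labelled KO had 16.6 and 26.4 CPM, those of L101P 18.8 and 26.5, and those of E690K 29.4 and 33.4. The ranges of WT and E292V overlapped, those of KO and L101P overlapped, and E690K stood above both.

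TNC was 6.14 and 4.66 times WT in the untreated and transduced E690K pairs, with a fitted log2 fold change of 2.46 and an SE of 0.26 (edgeR adjusted p 0.000273). In L101P it was 3.93 and 3.70 times WT (1.97, SE 0.25, edgeR adjusted p 0.00198), and in the line labelled KO 3.47 and 3.68 times (1.87, SE 0.25, 0.00378). The E690K and L101P calls were kept under all 18 other settings, and the call in the line labelled KO was lost in 1 of 18, without its transduced library (edgeR adjusted p 0.0611). In E292V, TNC was 1.38 times WT in the untreated and 0.548 times in the transduced pair.

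The lines thus did not have the same order for the RNA of the 2 proteins that bind each other. Protein was not measured. VCAN was highest and TNC low in E292V, both were high in E690K, and both were above WT in the line labelled KO. TNC alone was well above WT in L101P, and WT was low for both. Over the 10 libraries the Pearson r of VCAN with TNC was -0.22 on the log2 scale, a description over libraries that share lines and the scaling by depth.

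**Figure D3:**
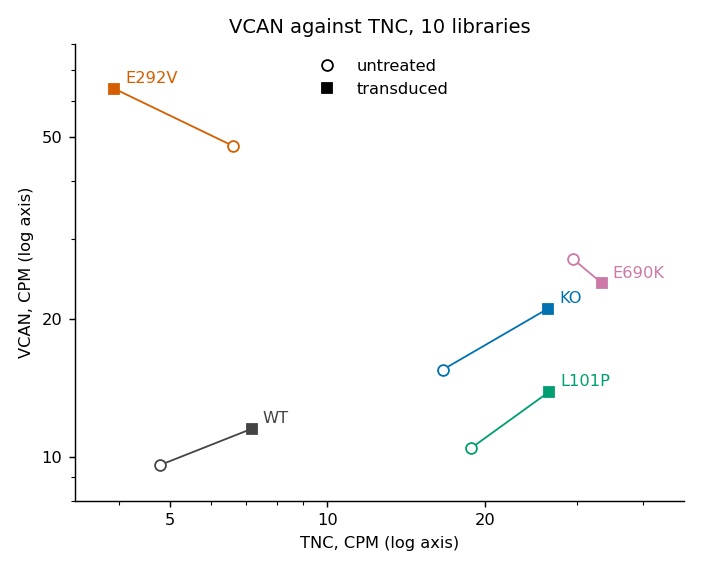
VCAN against TNC in CPM (both axes log) in the 10 libraries, with the untreated (open circle) and transduced (filled square) library of each line joined. E292V lies at the upper left (VCAN 47.8 and 63.8 CPM, TNC 6.61 and 3.92), E690K at the right (VCAN 27.1 and 24.0, TNC 29.4 and 33.4) and WT at the lower left.

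HAS2, which makes long hyaluronan chains at the plasma membrane, lies on chromosome 8. It had 4.02 and 4.33 CPM in untreated and transduced WT cells, 3.88 and 3.64 in the libraries labelled KO, 5.86 and 7.13 in L101P, 4.39 and 6.12 in E292V, and 7.47 and 7.65 in E690K. The E690K libraries were above all others, with the highest L101P library close below (95% interval 6.41 to 7.92 CPM against 6.64 to 8.38 in untreated E690K). The order of the lines was E690K, L101P, E292V, WT and KO, and the ranges of L101P and E292V overlapped.

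HAS2 rose in E690K against WT by 0.91 on the log2 scale, with an SE of 0.18 (edgeR adjusted p 0.0114). This call was lost without any 1 of the libraries it compares: the edgeR adjusted p was 0.162 and 0.0675 without the untreated and the transduced E690K library, and 0.0759 and 0.0744 without those of WT. In L101P the log2 fold change was 0.67 (SE 0.18) and just missed the threshold (edgeR adjusted p 0.0583). It passed there in 6 of 18 other settings, such as the DESeq2 Wald test (adjusted p 0.0206) and without the E292V pair (edgeR adjusted p 0.0451), and its adjusted p reached 0.274 without the transduced WT library. The antisense gene HAS2-AS1 had 52 to 107 counts where HAS2 had 291 to 690, and without stated strand use their reads cannot be told apart. Antisense rows of VCAN, CD44 and ADAMTS9 had at most 10 counts.

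HAS3 (chromosome 16, 69105564 to 69118719, plus strand), a synthase of shorter hyaluronan chains, was the more counted synthase in every library. It had 52.2 CPM in untreated and 64.7 in transduced WT cells, 50.2 and 59.9 in the libraries labelled KO, 42.1 and 50.9 in L101P, 58.7 and 76.7 in E292V, and 57.1 and 67.6 in E690K. Neighbours in the order E292V, E690K, WT, KO, L101P overlapped throughout, and the highest of the 10 levels was 1.82 times the lowest. Against WT the log2 fold change was -0.29 (SE 0.08) in L101P, short of the threshold (edgeR adjusted p 0.0606). It passed there with a filter of 10 counts in each library (0.0454) and in the DESeq2 Wald test (adjusted p 0.0321), and its edgeR adjusted p reached 0.322 with the labels of the KO pair exchanged.

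CD44 (chromosome 11, 35138870 to 35232402, plus strand), the main surface receptor of hyaluronan, was the most abundant member, with 216 CPM in untreated and 286 in transduced WT cells. The libraries labelled KO had 255 and 271 CPM, those of L101P 224 and 220, those of E292V 279 and 362, and those of E690K 285 and 304. CD44 passed in none of the 3 tested line contrasts. The nearest was E690K at 0.29 on the log2 scale, with an SE of 0.10 (edgeR adjusted p 0.111), which passed without the L101P pair (0.0170), without the untreated (0.0130) or the transduced (0.0131) L101P library, without a filter (0.0193) and in the DESeq2 Wald test (adjusted p 0.0323). It was at 0.17 without the untreated WT library (edgeR adjusted p 0.622) and at 0.43 without the transduced WT library (0.0600).

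Among the member proteases ADAMTS1, ADAMTS5 and ADAMTS9, ADAMTS9 alone passed the filter. ADAMTS9 (chromosome 3, 64515654 to 64688000, minus strand) had 2.59 and 2.17 CPM in untreated and transduced E292V cells, from 204 and 206 counts. It had 0.527 and 0.394 CPM in WT, 1.12 and 0.911 in the libraries labelled KO, 0.202 and 0.372 in L101P, and 0.370 and 0.154 in E690K. The E292V libraries lay above all others, as for VCAN, and those labelled KO came next. The E292V level was 4.91 and 5.51 times that of WT in the 2 pairs, with no test because of the choice of the contrast. In the line labelled KO the log2 fold change against WT was 1.17 (SE 0.46, edgeR adjusted p 0.264), and in E690K and L101P it was -0.79 and -0.55, each with an SE of 0.49 (edgeR adjusted p 0.436 and 0.614). These 3 values rest on 12 to 84 counts per library.

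ADAMTS5, the aggrecanase best known from cartilage, had 0 counts in the 10 libraries, for which the upper 95% Wilson limit on read pairs was 0.0794 to 0.129 CPM per library. ADAMTS1 had 10 and 8 counts in untreated and transduced E690K cells, 6 in transduced L101P, 2 in transduced E292V and 0 in the other 6 libraries. BGN, the small leucine-rich proteoglycan biglycan, had 6 counts in transduced WT and in transduced E690K cells, 4 in untreated L101P, 2 in untreated E292V and 0 elsewhere. E690K was thus the only line with ADAMTS1 counts in both libraries. The intervals there, 0.0565 to 0.310 and 0.0398 to 0.263 CPM, overlapped those of WT, which reached 0.0920 and 0.0946 CPM. ADAMTS1 and BGN did not pass the filter. In the fit without a filter neither passed in the 3 line contrasts or with the vector (lowest edgeR adjusted p 0.473 for ADAMTS1, in E690K, and 0.887 for BGN).

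The 5 transduced libraries were then compared with the 5 untreated ones within lines, to ask whether the vector moved these genes. Of the 6 members, 0 passed an edgeR adjusted p of 0.05, as did 0% of all 17978 genes; 3 members (HAS3, CD44 and VCAN) had an unadjusted p under 0.05, as did 1236 genes. HAS3 came nearest. It was higher in the transduced library in all 5 lines, which held for 2.93% of all tested genes and for no other tested member, by 1.19 to 1.31 times, or 0.32 on the log2 scale with an SE of 0.05 (edgeR adjusted p 0.109). Its unadjusted p of 2.6e-05 was the 4th smallest of all genes.

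The HAS3 difference passed without the L101P pair (edgeR adjusted p 0.0112) or either of its libraries (0.00409 without the untreated, 0.00413 without the transduced), without a filter (0.000514) and in the DESeq2 Wald test (adjusted p 7.0e-05), so that its call depended on the processing while its log2 fold change lay between 0.21 and 0.33 in the 21 other settings. With the labels of the KO pair exchanged HAS3 was higher in 4 of 5 lines, at 0.21 on the log2 scale (edgeR adjusted p 0.99967). CD44 was higher in 4 of 5 lines (log2 fold change 0.21, SE 0.06, edgeR adjusted p 0.429), with L101P the exception. It passed without a filter (0.0342), without the L101P pair (0.0383) and without the untreated (0.0187) or the transduced (0.0181) L101P library. VCAN was higher in 4 of 5 lines, with E690K the exception (log2 fold change 0.29, SE 0.09, edgeR adjusted p 0.445), and passed without a filter (0.0447). With the labels of the KO pair exchanged CD44 and VCAN were higher in 3 of 5 lines each, at 0.17 and 0.11 on the log2 scale (edgeR adjusted p 0.99967 for both).

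To see whether genes beside VCAN differed in the same lines, the 22 genes averaging 2 CPM or more within 5 Mb were examined. Distances here were taken between the lower genomic coordinates of the genes, on either strand. In E292V the median difference of these 22 genes from WT was 0.06 on the log2(CPM + 0.5) scale, where VCAN stood at 2.34. The nearest, TMEM167A and XRCC4, were at 0.19 and -0.13. RASGRF2, 2.51 Mb away, was at 1.44, against -1.84 in L101P and -0.64 in E690K, and the other 21 lay in E292V between -0.30 and 0.19. In E690K the neighbours' median was -0.09, from -0.64 (RASGRF2) to 0.12, and VCAN was at 1.24. For TNC, the 35 neighbours had medians of -0.08 in E690K, -0.04 in L101P and -0.06 in the line labelled KO, where TNC was at 2.32, 1.84 and 1.75. The nearest, TNFSF15, 0.23 Mb away, was at 0.27 in E690K, 1.10 in L101P and 0.40 in the line labelled KO, and at -1.51 in E292V, where TNC was at -0.18. The neighbours named here were singled out after their values were seen. For ADAMTS9, 14 neighbours had a median of 0.07 in E292V, where ADAMTS9 was at 1.58.

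**Figure D4:**
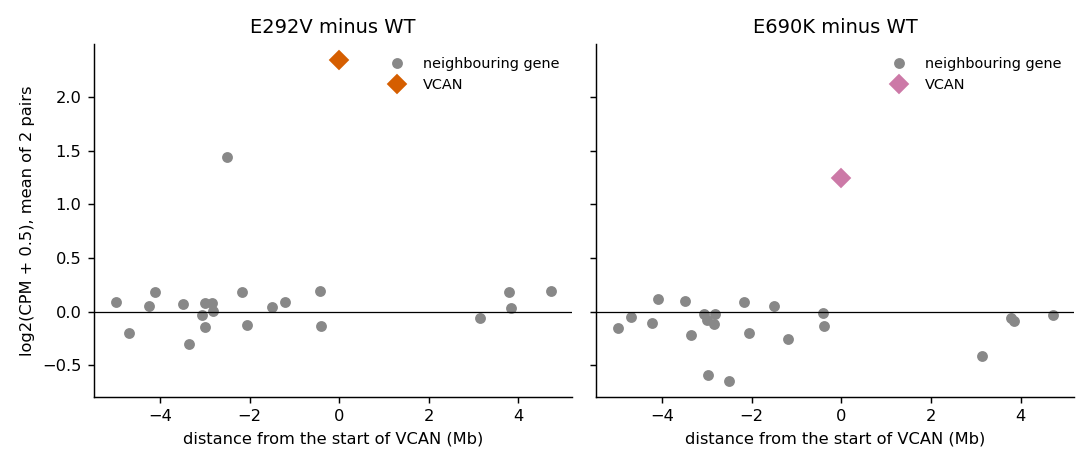
Difference from WT on the log2(CPM + 0.5) scale, averaged over the untreated and the transduced pair, of VCAN (diamond) and of the 22 genes within 5 Mb of it (grey), for E292V and E690K. The horizontal axis is the distance in Mb between lower genomic coordinates. The medians of the neighbours are 0.06 and -0.09, RASGRF2 is their highest in E292V (1.44), RASGRF2 (-0.64) and FAM151B (-0.59) are their lowest in E690K, and VCAN stands above all of them.

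Fibroblast and stromal markers were measured beside VCAN, since such cells are known for making versican. Their summed level over 9 genes was 100 and 151 CPM in the untreated and transduced E292V libraries and 23.7 to 68.3 CPM in the other 8. COL1A1, a chain of collagen I, carried most of it (74.3 and 118 CPM in E292V, 13.8 to 45.5 elsewhere), with THY1 at 22.1 and 29.1 CPM in E292V and 7.64 to 20.5 elsewhere. The defining genes COL1A2, COL3A1, DCN, PDGFRA and PDGFRB were at most at 0.601 CPM in any library, and POSTN had 0 counts. At these low levels COL1A2 (0.279 and 0.0211 CPM), COL3A1 (0.380 and 0.358), PDGFRA (0.342 and 0.601) and PDGFRB (0.279 and 0.411) were higher in both E292V libraries than in the other 8. Some margins were small, with PDGFRA at 0.335 CPM in untreated WT and PDGFRB at 0.246 CPM in transduced WT. DCN had 0 counts in E292V. The summed epithelial markers were 8585 and 8035 CPM in E292V and 8977 to 14753 elsewhere, carried by KRT8, KRT7 and KRT18, while the alveolar marker NAPSA was at 0.358 to 1.15 CPM. Endothelial markers summed to at most 1.08 CPM and leukocyte markers to 1.16 to 6.29 CPM, mostly CD14. Of the 9 fibroblast genes, 3 (COL1A1, THY1 and LUM) reached 1 CPM in every library. LUM was not highest in E292V, where it had 2.64 and 2.07 CPM. It had 2.88 and 3.94 CPM in the libraries labelled KO, 3.33 and 3.94 in E690K, and 1.58 to 1.99 in WT and L101P. In bulk RNA, more cells of a type and more RNA per cell cannot be told apart. The part of COL1A1 and THY1 in the VCAN level was not tested.

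Other genes of the pathway were read from 5 lists. Of 10 genes of hyaluronan synthesis and its sugar precursors, 0 passed in the 3 tested line contrasts and with the vector in edgeR. At an unadjusted p under 0.05 there were 2 of 10 in the line labelled KO, 4 in L101P, 3 in E690K and 0 with the vector, beside 14.1%, 18.3%, 19.3% and 6.88% of all genes. UGDH, which makes the UDP-glucuronate that hyaluronan synthases use, stayed between 517 and 619 CPM and GPI between 706 and 932 CPM. The list's median log2 fold change was -0.04 in KO, 0.06 in L101P and -0.04 in E690K, where that of all genes was -0.01, -0.01 and -0.02.

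Of 24 genes that bind hyaluronan or turn it over, 14 were tested, and the link protein gene HAPLN3 was the only one called. Of all genes tested, 3.94% were called in L101P and 5.38% in E690K. At an unadjusted edgeR p under 0.05 there were 3 of 14 in the line labelled KO, 2 in L101P and 5 in E690K. The shares of all genes were 14.1%, 18.3% and 19.3%. HAPLN3 fell in L101P (log2 fold change -1.33, SE 0.26, edgeR adjusted p 0.0144) and in E690K (-1.12, SE 0.25, 0.0243), and was at -1.08 in the line labelled KO (0.0540). It had 14.9 and 23.9 CPM in untreated and transduced WT cells, 22.4 and 50.2 in E292V and 7.24 to 8.99 in the other 6 libraries. The receptor gene HMMR was at 52.3 to 66.9 CPM and the hyaluronidase gene CEMIP2 at 180 to 228 CPM. The list's medians were -0.03 in KO, -0.16 in L101P and -0.24 in E690K.

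Of 16 versican partners and related proteoglycans, 11 were tested. In L101P 1 was called lower, and in E690K 2 were called higher and 1 lower. Of all genes, 3.94% and 5.38% were called in either direction in these lines. In E690K, FBN1, the fibrillin of microfibrils to which versican binds, rose by 1.01 on the log2 scale, with an SE of 0.15 (edgeR adjusted p 0.00263), and LUM rose by 1.02 (SE 0.26, 0.0371) from only 1.99 and 1.70 CPM in untreated and transduced WT cells. FBLN1 fell there (-0.44, SE 0.12, edgeR adjusted p 0.0479), and FBN2 fell in L101P (-0.68, SE 0.14, 0.0231). In the line labelled KO 0 of 11 passed, with 4 at an unadjusted p under 0.05, as had 14.1% of all genes. FN1 was at 57.3 to 177 CPM and was called nowhere. The medians were -0.05 in KO, -0.04 in L101P and 0.21 in E690K.

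Of 17 metalloproteases and inhibitors, 13 were tested. In the line labelled KO 2 were called lower, in L101P 1 higher and 1 lower, and in E690K 1 higher and 2 lower. Of all genes, 1.8%, 3.94% and 5.38% were called in either direction in these lines. MMP2, gelatinase A, fell in the 3 tested lines, by log2 fold changes of -2.47 (SE 0.31, edgeR adjusted p 0.00268) in the line labelled KO, -1.97 (SE 0.30, 0.00521) in L101P and -1.31 (SE 0.29, 0.0229) in E690K. It had 5.39 and 9.06 CPM in untreated and transduced WT cells, 11.1 and 21.2 in E292V and 1.01 to 2.76 in the other 6 libraries. TIMP3, a matrix-bound inhibitor that also blocks ADAMTS proteases, fell in the line labelled KO (-3.44, SE 0.75, edgeR adjusted p 0.0407) and in E690K (-3.31, SE 0.75, 0.0247) from WT levels of only 1.20 and 2.49 CPM. MMP7 rose in L101P (1.09, SE 0.25, edgeR adjusted p 0.0337), at 96.7 CPM untreated and 236 transduced, and TIMP2 rose in E690K (0.36, SE 0.08, 0.0215). TIMP1 was called in none of the 3 tested contrasts. It had 68.8 and 66.7 CPM in untreated and transduced E292V cells, with no test, and 102 to 148 CPM in the other lines. The medians were -0.15 in KO, -0.12 in L101P and 0.08 in E690K.

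The 20 genes of chondroitin sulfate synthesis, which build the side chains of versican, were all tested. In L101P 1 was called higher and in E690K 2, beside 2.33% and 3.05% of all genes called higher. In E690K the sulfotransferase genes CHST11 (log2 fold change 0.47, SE 0.08, edgeR adjusted p 0.00426) and CHST3 (0.34, SE 0.07, 0.0172) rose, and in L101P the xylose kinase gene FAM20B rose (0.29, SE 0.07, 0.0413). The best counted, CSGALNACT1, was at 110 to 142 CPM and passed in none. In the line labelled KO 0 of 20 passed, with 4 at an unadjusted p under 0.05, as had 14.1% of all genes. The medians were 0.08 in KO, 0.04 in L101P and 0.00 in E690K. With the vector, 0 genes of the 5 lists passed (0 to 3 of each at an unadjusted p under 0.05, as had 6.88% of all genes).

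These list calls rested on few libraries. MMP2 in L101P passed in 18 of 18 other settings. MMP2 in KO failed in 1 of 18, without the transduced KO library (edgeR adjusted p 0.0507), FBN1 in 1, without the untreated E690K library (0.0691), and HAPLN3 in L101P in 1, without the transduced WT library (0.0996). CHST11 failed in 2 of 18, without the untreated (0.0618) or the transduced (0.0664) E690K library. HAPLN3 and MMP2 in E690K failed in 3 of 18 each, without either E690K library or the transduced WT library (largest edgeR adjusted p 0.281 and 0.234).

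The other list calls failed in 4 to 11 settings. MMP7 in L101P passed in 10 of 18 and was at 0.37 on the log2 scale without the transduced L101P library (edgeR adjusted p 0.0679) and at 1.65 without the untreated one. FBN2 in L101P passed in 14 of 18 and was at -0.38 without the transduced WT library (edgeR adjusted p 0.211) and at -0.45 without the transduced L101P library (0.0556). TIMP3 passed in 8 of 17 in KO, where it was at -5.73 without the transduced KO library (edgeR adjusted p 0.0794), and in 12 of 17 in E690K. TIMP2 passed in 14, CHST3 in 13, LUM in 12, FBLN1 in 9 and FAM20B in 7 of 18, each failing without the untreated WT library (edgeR adjusted p 0.212, 0.0679, 0.0982, 0.0782 and 0.198).

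**Figure D5:**
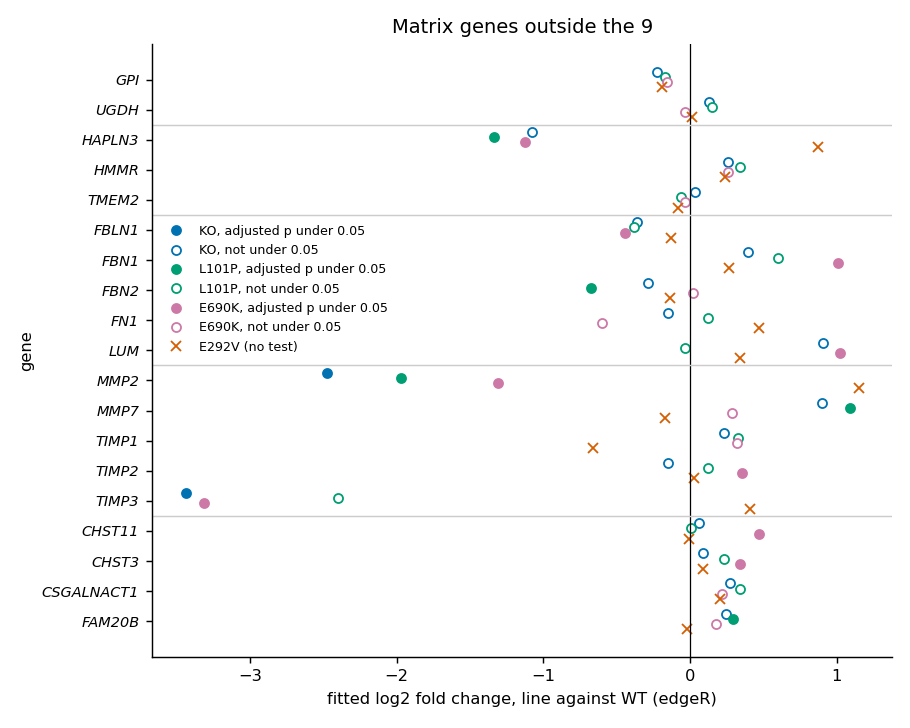
Fitted log2 fold change against WT (edgeR) of the genes named from the 5 lists, in KO, L101P and E690K (filled circles for an adjusted p under 0.05, open circles otherwise) and in E292V (crosses, no test). TMEM2 is the row name of CEMIP2. MMP2 lies between -1.31 and -2.47 in the 3 tested lines and at 1.15 in E292V, and HAPLN3 lies between -1.08 and -1.33 and at 0.88.

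The genes whose pattern over the 10 libraries was most like that of VCAN were SINHCAF (Pearson r 0.97 on the log2(CPM + 0.5) scale), PPP2CB (0.96), TTL (0.93), SET (0.92) and RRAD (0.92), among 11955 genes averaging 2 CPM or more. SINHCAF was at 95.6 to 113 CPM, a narrower range than that of VCAN, and RRAD was at 1.44 to 4.47 CPM. Those most like TNC were LAMB3, a laminin chain (0.99, 28.2 to 148 CPM), the laminin receptor chain ITGA6 (0.99, 75.1 to 159 CPM) and the keratin KRT80 (0.99, 240 to 489 CPM). Those most like CD44 were DIEXF (0.94), COL4A2 (0.92) and PICALM (0.92). Within the members, CD44 and HAS3 had the highest r (0.89), then VCAN with CD44 (0.80) and with ADAMTS9 (0.71), and TNC with ADAMTS9 the lowest (-0.59). The libraries share 5 lines and depth, and the values describe these 10 points only.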

How the data were processed

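RNA was sequenced from 10 A549 libraries, 1 for each of 5 lines and 2 treatments. The authors deposited 1 table of unnormalized whole-number counts for each gene. The submitters' processing notes name featureCounts, Subread, edgeR, limma and GRCh38, with no versions; the annotation, strand use and counting of mates are not given in the sources used here. Of the counts from 1 to 10, 81.4% were even, so intervals were taken on read pairs, the count divided by 2. Members and lists were chosen with earlier results of these data known.

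Counts were fitted in edgeR 4.0.16 (R 4.3.3): filterByExpr (17978 genes), TMM factors (0.972 to 1.03), an additive model of line and vector with line as the block (4 residual degrees of freedom), quasi-likelihood tests and Benjamini-Hochberg adjustment over all genes, threshold 0.05. The pairing within lines comes from the cell line. The standard error is the log2 fold change over the square root of F. The quasi-likelihood fit shares information on spread across genes, so that a p-value does not rest on the gene's own spread alone. The method was also run on simulated counts with additive effects of line and vector and the same spread for all genes. That run cannot show how the tests behave where those effects are not additive. Named were the 9 members, the genes of each list called in a tested contrast or its 2 most counted, and the most correlated genes (5 for VCAN, 3 each for CD44 and TNC; pseudocount 0.5 CPM). Positions and exon lengths come from GENCODE 29. Other settings were DESeq2 1.42.0 factors and Wald test, other filters, exchanged KO labels, no line block, and each pair or library left out.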

Additional observations from a re-analysis of the deposited data

How the results depend on the processing

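Of 450 checks of a member's call in a tested contrast under another setting, 413 kept direction and side of the threshold, 9 lost the call, 23 gained it and 5 reversed. The reversals concerned values that had not passed: TNC with the vector was -0.0088 with the KO labels exchanged, HAS2 in KO 0.040 without the transduced KO library (range over left-out libraries -0.28 to 0.040), CD44 in KO -0.013 without the untreated WT library (-0.013 to 0.25), CD44 in L101P 0.012 without the transduced WT library (-0.24 to 0.012) and ADAMTS9 in L101P 0.010 without the untreated L101P library (-1.39 to 0.010). The cause was not tested.

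The genes called numbered 0 with the vector, and for KO, L101P, E292V and E690K 323, 709, 189 and 967. Without a filter they were 237, 982, 1437, 662 and 1659, with the DESeq2 Wald test 118, 740, 1227, 429 and 1463, and with the KO labels exchanged 0, 142, 367, 105 and 599. Leaving out pairs or libraries gave 0 to 206, 25 to 1226, 180 to 1967, 13 to 810 and 169 to 2147. Members called became 3 with the vector, 2 in L101P, 3 in E292V and 4 in E690K without a filter, 1, 3, 3 and 4 with the DESeq2 Wald test, 2 in L101P with at least 10 counts in each library, and 1 in KO and 1 in E292V with the KO labels exchanged. Leaving out pairs or libraries gave 0 to 2 members with the vector, and 0 to 2, 1 to 2, 1 to 3 and 2 to 4 for KO, L101P, E292V and E690K. Nothing is read from the member counts in E292V, because that contrast chose VCAN. Without the replicate block of line, 0 genes were called with the vector and the edgeR adjusted p of HAS3, CD44 and VCAN was 0.99984. Where 1 library of a line was left out, the lone library was assumed to vary like the others.

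By Spearman rho, 3 of the 5 genes most like VCAN, 0 of 3 for CD44 and 1 of 3 for TNC were kept. Within 2 Mb, the median of the VCAN neighbours was 0.044 in KO and 0.028 in L101P, against -0.018 and -0.076 within 5 Mb. With 1 library for each line and treatment and 1 line for each genotype, differences between lines and effects of genotype cannot be told apart, and depth limits ADAMTS9, ADAMTS1, ADAMTS5 and BGN.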
